A study of Mus musculus with 36 samples.

Results

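Accessible chromatin was compared at 1325 densely clustered regions of the genome of mouse primary cortical neurons. A region was taken when it lay on chromosomes 1 to 19, was under 2000 bp wide, and had 5 or more other listed regions with midpoints within 15 kb of its own. The rule used positions and widths only, and not the counts compared here. The positions come from the authors' list of regions, and the sources used here do not give how these were called. These 1325 regions were 1.93% of the autosomal regions under 2000 bp and were drawn from 76570 listed regions in all. Cultures were made from embryos of 2 genotypes at E16.5, wild type (WT) and Actl6b-/- (KO, lacking both copies of Actl6b), and kept for 7 days. Both genotypes were at rest, with 2 h in TTX, a sodium channel blocker, and APV, an NMDA receptor blocker. ATAC-seq, in which the Tn5 transposase cuts and tags open DNA, was run on 55000 neurons per culture, in 5 WT and 7 KO cultures given as separate biological replicates.

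ACTL6B is an actin-related subunit of the BAF complex of neurons, which uses ATP to move or evict nucleosomes. Regions where Tn5 cuts are stretches with few nucleosomes, such as promoters and enhancers. Enhancers often lie close together in groups around genes that define a cell type, and BAF complexes are known to act at such sites. The comparison of KO with WT asks whether these dense groups lost or gained accessibility, and whether regions of one group changed together. The deposited coordinates were read as mm9, since the last region of chromosome 1 ends at 197068294. No mm9 sequence or annotation was used here, so genes near the regions, their exons or introns and their sequences were not analysed here. The neuronal label was not checked against marker genes, nor the genotype against the Actl6b locus. In a culture, fewer cells with an open region and less opening per cell cannot be told apart.

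Library totals ran from 4679644 to 7262297 counts in WT and from 5296643 to 7040224 in KO. On the first principal component of all regions except those of very low mean level, which held 22.9% of the variance, the genotypes overlapped. WT 4-3 was at 32.0, and the other WT libraries were between -86.0 and -42.0. KO 2-3 was at -45.9 and KO 3-5 at -26.5, and the other KO libraries were between 14.3 and 111. Library scaling factors (TMM) were 0.949 to 0.992 in libraries with negative values and 1.00 to 1.05 in the others. On the second component, which held 10.4% of the variance, KO 2-3 stood apart at -127. The other 11 libraries were between -17.2 and 65.3. Counts on chromosome Y were found in 3 of 5 WT and 4 of 7 KO libraries, and both sexes were thus present in each genotype. Each library carries a 2-part code, such as 3-4, whose meaning the labels do not give. Codes starting with 3 (2 WT, 3 KO) and with 4 (3 WT, 2 KO) occur in both genotypes, and those starting with 1 or 2 in KO only.

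The clustered regions had a median width of 803 bp, against 672 bp for the 67245 other autosomal regions under 2000 bp and 625 bp for the 20846 with no neighbour within 15 kb. Their median level was 7.51 CPM (counts scaled to library size), against 6.17 CPM in the other regions and 5.72 CPM in those with no neighbour. Per kb of width the order turned, with medians of 9.45, 9.61 and 9.75 CPM per kb. The clustered regions were thus wider and no more accessible per base. Their median gap to the nearest listed region was 1110 bp, against 7592 bp for the others. For 256 of them (19.3%) the nearest listed region was under 200 bp away, against 4.27% of the others. The sources used here do not say whether a read spanning 2 such regions was counted in both.

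Joined in chains of consecutive midpoints at most 15 kb apart, the regions formed 480 clusters. Of these, 189 held 1 clustered region, whose neighbours were too wide or themselves had too few neighbours, 94 held 2, 142 held 3 to 5, 51 held 6 to 9 and 4 held 10 or more. The median span was 4.00 kb and the largest was 60 kb. By chromosome the share was highest on chromosome 13, with 118 clustered regions (3.57% of its autosomal regions under 2000 bp), and on chromosome 9, with 127 (3.21%). Chromosome 16 had the lowest share, with 7 (0.284%). The largest cluster, of 39 regions, lay on chromosome 9 and is described apart, because it stood apart from the rest in most measures below.

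Taken as a whole, the densely clustered regions showed no common shift between the genotypes relative to the other regions. Shares of counts and scaled fold changes are both relative, so a change common to all regions would not show. They took 1.24% ± 0.00961 (SD, n = 5) of the counts in WT and 1.25% ± 0.0360 (SD, n = 7) in KO. The WT shares, 1.23 to 1.25%, lay inside the KO range of 1.19 to 1.28%. The median log2 fold change, KO over WT, was 0.00 over the 1297 clustered regions that passed the filter on low counts, and 0.00 over all 73346 tested regions. In the other 28 the counts were too low to test. The medians varied with level. Over all tested regions they were 0.17 in the lowest quartile of level and -0.05 in the highest, beside 0.08 and -0.04 in clustered regions.

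Single clustered regions changed about as often as regions elsewhere. At a Benjamini-Hochberg adjusted p under 0.05 over all tested regions (edgeR quasi-likelihood test), 11 of the 1297 were called (0.848%), 6 higher and 5 lower in KO. The share over the whole table was 0.810%, with 0.525% higher and 0.285% lower. It was 0.825% in the other autosomal regions under 2000 bp and 0.890% in those with no neighbour. At an unadjusted p under 0.05, 184 clustered regions passed (14.2%), 96 higher and 88 lower, beside 14.3% of all regions. The genotypes did not overlap in 18 of the 1297 (1.39%), 10 higher and 8 lower, against 1.33% of all regions (0.641% higher, 0.687% lower).

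Counts of calls depended on which libraries were included, and leaving out most single libraries changed them. The number of called clustered regions was 2 without WT 3-4 or without WT 4-4, 3 without KO 4-7, 4 without WT 3-7, 5 without KO 3-2, and 6 without WT 4-2, KO 3-3 or KO 4-8. It was 23 without WT 4-3 and 28 without KO 2-3. On the first principal component, WT 4-3 and KO 2-3 had the sign opposite to most libraries of their genotype. So did KO 3-5, and without KO 3-5 the number of called clustered regions was 12. The part of this in the calls was not tested. With the first code number as a block, where KO 1-1 and KO 2-3 stand alone in their codes and do not bear on the difference, it was 22 (1.70%, beside 2.00% of all regions). The whole table moved with them: its share of called regions was 0.128% without WT 4-4, beside 0.153% of the clustered regions, and 1.91% without KO 2-3, beside 2.16%.

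The share called showed no steady trend with the number of neighbours up to 6. It was 0.890% with none, 0.800% with 1, 0.799% with 2, 0.709% with 3, 0.982% with 4, 0.669% with 5 and 0.797% with 6. With 7 neighbours 2 of 79 regions were called (2.53%), and with 8 or more 1 of 70 (1.43%). The regions just inside the rule, with exactly 5 neighbours, had 4 higher and 2 lower calls among 897 tested, and those just outside, with 4, had 19 and 7 among 2648. Their median log2 fold changes were 0.02 and 0.03, and their median levels were 7.69 and 6.94 CPM. In the densest places the medians were negative, -0.15 with 7 neighbours (35.4% positive) and -0.42 with 8 or more (24.3% positive), the latter including the largest cluster. Outside the largest cluster, the 110 tested regions with 7 or more neighbours had a median of -0.09, 40% positive, with 1 higher and 1 lower call and 9.09% at an unadjusted p under 0.05.

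The 11 called regions lay in 10 clusters on 7 chromosomes. Their absolute log2 fold changes ran from 0.63 to 1.57 and their mean levels from 3.41 to 24.1 CPM. In all 11 the sign of the difference was the same in the cultures whose code starts with 3 and in those whose code starts with 4. In 9 of them, 5 higher and 4 lower, the genotypes did not overlap. The calls came from these same libraries, so neither count is separate support for them. Over all 1297 tested clustered regions, 62.8% had the same sign in both sets of cultures, and in 1.39% the genotypes did not overlap.

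**Figure D1:**
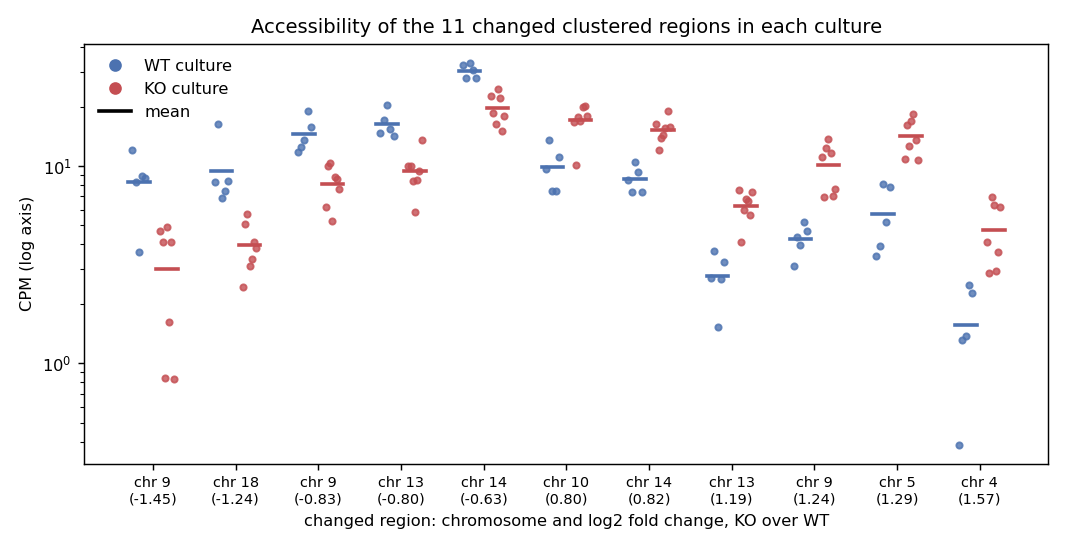
Accessibility (CPM, log axis) of the 11 called clustered regions in each library, 5 WT and 7 KO points per region. In 9 of the 11 the WT and KO points do not overlap. The 2 exceptions are the region of the largest cluster on chromosome 9 and the region on chromosome 10.

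Of the 6 regions that were higher in KO, the one at chr5:143061858-143062410 kept its call in every one of 21 alternative settings. Its WT levels were 3.49, 3.93, 8.07, 5.17 and 7.79 CPM in WT 3-4, 3-7, 4-2, 4-3 and 4-4, and the 7 KO levels ran from 10.7 to 18.2 CPM with a median of 13.5 CPM. Every KO culture thus lay above every WT culture. KO exceeded WT by 1.29 on the log2 scale (standard error 0.231, adjusted p 0.00238 by edgeR), and adjusted p ran from 8.03e-05 to 0.0245 over the alternatives. Its 7 tested neighbours had log2 fold changes from -0.26 to 0.31, and none was called.

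The region at chr9:30739710-30740742 had WT levels of 3.10, 4.36, 3.96, 5.17 and 4.68 CPM, in the order of cultures used throughout, and KO levels from 6.97 to 13.7 CPM with a median of 11.1 CPM. All 7 KO cultures were above the highest WT culture. The rise was 1.24 on the log2 scale (standard error 0.259, adjusted p 0.0111 by edgeR), and the call was lost in 1 of 21 alternatives, without WT 3-4 (adjusted p 0.053). The 5 neighbours were near 0, from -0.12 to 0.07. It was larger in the cultures whose code starts with 3 (1.68 on the log2 scale) than in those that start with 4 (0.65), a difference that was not tested.

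The region at chr4:32425464-32425988 had the largest fold change and the lowest level of the 11. Its WT levels were 0.387, 1.31, 1.37, 2.49 and 2.27 CPM, and its KO levels ran from 2.85 to 6.99 CPM with a median of 4.13 CPM. Without overlap, the rise was 1.57 on the log2 scale (standard error 0.404, adjusted p 0.0432 by edgeR). The call was lost in 8 of 20 alternatives, each leaving out 1 library (WT 3-4, 3-7, 4-2 or 4-4, or KO 3-2, 3-3, 4-7 or 4-8), with adjusted p from 0.0677 to 0.137. With a minimum mean of 5 CPM the region was not tested. Its 5 neighbours had log2 fold changes from -0.13 to 0.19.

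On chromosome 14, the region at chr14:122012234-122013189 rose from 8.62 ± 1.32 CPM (SD, n = 5) to 15.3 ± 2.16 CPM (SD, n = 7). The WT range of 7.37 to 10.5 CPM lay below the KO range of 12.04 to 18.9 CPM. Its log2 fold change was 0.82 (standard error 0.195, adjusted p 0.0255 by edgeR). Leaving out WT 3-4, WT 3-7, WT 4-4 or KO 4-7 ended the call, at adjusted p from 0.070 to 0.0953.

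The region at chr10:80468361-80469567 rose from 9.84 ± 2.56 CPM (SD, n = 5) to 17.04 ± 3.33 CPM (SD, n = 7), a log2 fold change of 0.80 (standard error 0.197, adjusted p 0.0333 by edgeR). Here the genotypes overlapped by 1 culture, KO 2-3 at 10.1 CPM, below the highest WT culture at 13.5 CPM. The call was lost without WT 3-4, 4-2 or 4-4, or KO 3-2, 3-3, 4-7 or 4-8, with adjusted p from 0.0575 to 0.118.

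Among the 5 regions that were lower in KO, the one at chr18:13083440-13084051 had WT levels of 8.33, 16.4, 6.85, 7.48 and 8.36 CPM and KO levels from 2.44 to 5.73 CPM with a median of 3.83 CPM. All 7 KO cultures were below the lowest WT culture, and WT 3-7, at 16.4 CPM, was far above the other 4. It gave a log2 fold change of -1.24 (standard error 0.277, adjusted p 0.0172 by edgeR). Without WT 3-7 the adjusted p was 0.138, and without WT 4-4 it was 0.0526. Its nearest neighbour, 773 bp away, had a log2 fold change of -0.03.

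The region at chr14:20795520-20797149 was the most accessible of the 11. Its WT levels were 32.5, 27.9, 33.2, 30.5 and 27.8 CPM, and its KO levels ran from 15.1 to 24.4 CPM with a median of 18.5 CPM, without overlap. This was a log2 fold change of -0.63 (standard error 0.142, adjusted p 0.0173 by edgeR), lost without WT 3-4, 4-2 or 4-4, or KO 3-2 or 4-7 (adjusted p from 0.0511 to 0.0678). A neighbour with its midpoint 1867.5 bp away had a log2 fold change of -0.65 but did not pass (adjusted p 0.126). The remaining 5 neighbours all had positive values, the highest 0.49, and the median of the 6 was 0.12.

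The region at chr9:102538903-102540645 fell from 14.5 ± 2.95 CPM (SD, n = 5) to 8.13 ± 1.87 CPM (SD, n = 7). Its lowest WT culture, at 11.8 CPM, was above its highest KO culture, at 10.3 CPM. On the log2 scale it changed by -0.83 (standard error 0.208, adjusted p 0.0367 by edgeR). Of 21 alternatives 10 ended this call, the first code number as a covariate (adjusted p 0.0602) and 9 left-out libraries (WT 3-4, 3-7, 4-2, 4-3 or 4-4, or KO 1-1, 3-3, 4-7 or 4-8), with adjusted p from 0.0575 to 0.119.

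One cluster held 2 called regions, and they moved in opposite directions. It spanned 15.6 kb at chr13:34240363-34255947 and had 6 regions. The region at its start, chr13:34240363-34241500, had WT levels of 14.7, 17.01, 20.3, 15.3 and 14.2 CPM and KO levels from 5.83 to 13.5 CPM with a median of 9.45 CPM. Its log2 fold change was -0.80 (standard error 0.197, adjusted p 0.0347 by edgeR). The region at chr13:34248466-34249018 had WT levels of 2.71, 3.71, 1.52, 2.67 and 3.26 CPM and KO levels from 4.12 to 7.52 CPM with a median of 6.61 CPM. It rose by 1.19 on the log2 scale (standard error 0.314, adjusted p 0.0494 by edgeR). In neither did the genotypes overlap. The other 4 regions of the cluster had log2 fold changes of -0.09, 0.03, 0.02 and -0.06. Summed over the cluster the level was 85.2 ± 3.70 CPM (SD, n = 5) in WT and 80.2 ± 6.57 CPM (SD, n = 7) in KO. The log2 fold change of the sum was -0.08 (standard error 0.0972, adjusted p 0.740 by edgeR).

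Both calls in that cluster were fragile. The lower one was lost without WT 3-4, 3-7, 4-2 or 4-4, or KO 3-2, 3-3 or 4-7, with adjusted p from 0.0673 to 0.132. The higher one, the closest to the threshold of the 11, was lost in 12 of 20 alternatives, with adjusted p from 0.0515 to 0.154. These were trended scaling, no filter, and the loss of WT 3-4, 3-7, 4-2 or 4-4, or of KO 1-1, 3-2, 3-3, 3-5, 4-7 or 4-8. With a minimum mean of 5 CPM the higher one was not tested.

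No called region had a neighbour within 15 kb that edgeR or DESeq2 called in the same direction, 0 of 33 tested neighbours around the 6 higher and 0 of 52 around the 5 lower regions. With 0.525% of all regions called higher and 0.285% lower, counts this small were too few to show a difference from the background. At an unadjusted p under 0.05, 2 of the 33 and 18 of the 52 had the same direction, 17 of the 18 in the largest cluster on chromosome 9. Around the lower regions outside that cluster it was 1 of 22. Of all tested clustered regions, 7.40% passed higher and 6.78% lower at that threshold. By sign alone, 18 of the 33 (54.5%) were positive around the higher regions. Around the lower regions 38 of 52 (73.1%) were negative, but 30 of the 52 belonged to that cluster. Without it 9 of 22 (40.9%) were negative, and for both directions together 27 of 55 neighbours (49.1%) had the sign of the called region. The single nearest neighbour had that sign in 4 of 6 and 5 of 5 cases. Among called regions outside the dense clusters, 57.3% of the 433 tested neighbours of higher regions and 57.0% of the 186 of lower regions shared the sign. Of those neighbours 4 (0.924%) and 0 were themselves called in that direction by edgeR.

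Taken over all pairs, neighbours did show related fold changes, but most of the relation came from the 1 cluster on chromosome 9. The 1297 tested regions gave 2188 pairs with midpoints within 15 kb, over 1110 regions. Across these pairs Pearson's r of the log2 fold changes was 0.454 (Spearman's rho 0.460), and 63.2% had the same sign. Without the largest cluster, which gave 449 of the pairs (20.5%), r was 0.109 (rho 0.129) over 1739 pairs and 1071 regions, and 55.1% had the same sign. Within that cluster, r over its 449 pairs was -0.00482, while 94.2% had the same sign. Its regions thus shared a direction, but the sizes of the change were not related between its neighbours. In the other autosomal regions under 2000 bp, 33843 pairs within 15 kb had r 0.0509, and 51.9% had the same sign. All pairs share the same 12 libraries, with their depth and scaling, and a region enters several pairs, so these correlations across sites are given as a description.

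Fold changes were then taken from different cultures for the 2 regions of a pair, one from cultures whose code starts with 3 and one from those whose code starts with 4. Over the 2188 pairs this r was 0.252, and 58.2% had the same sign. Without the largest cluster it was 0.0470, with 52.0%, and in the other autosomal regions under 2000 bp it was 0.0311. The same measure for a region with itself was 0.303 in clustered regions outside the largest cluster and 0.383 in the others.

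**Figure D2:**
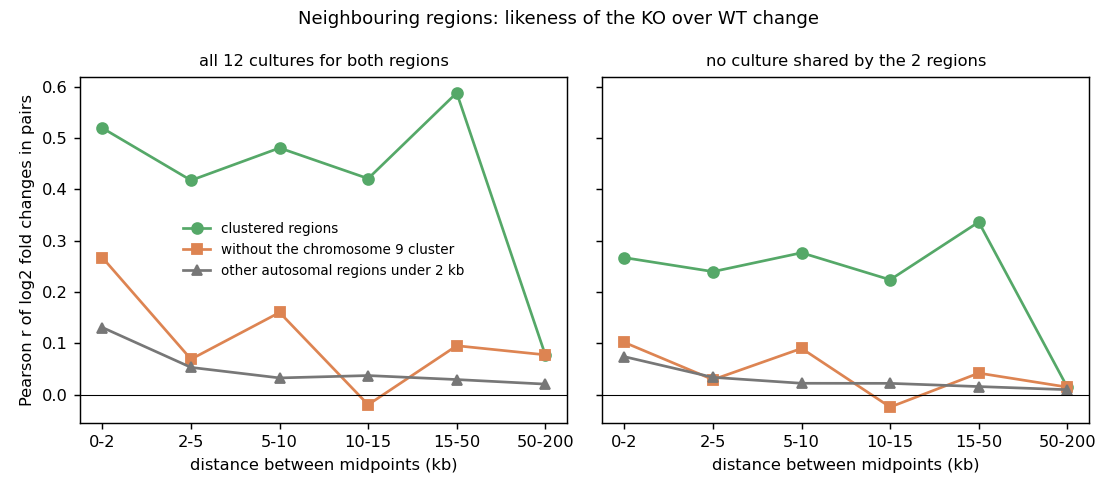
Pearson's r of the log2 fold changes of 2 regions against the distance between their midpoints (kb), for all clustered regions, clustered regions without the largest cluster, and other autosomal regions under 2000 bp; left, fold changes from all 12 cultures, and right, from cultures with codes starting with 3 for one region and with 4 for the other. On the left the points of all clustered regions stay above 0.4 up to 50 kb and drop to 0.0778 at 50 to 200 kb, while without the largest cluster r is 0.267 under 2 kb (0.102 on the right) and lower beyond it.

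What remained was largest at the shortest distances. Without the largest cluster, r was 0.267 for 281 pairs under 2 kb apart, 0.0692 at 2 to 5 kb, 0.160 at 5 to 10 kb and -0.02 at 10 to 15 kb. The other autosomal regions under 2000 bp had 0.131, 0.0533, 0.0328 and 0.0374 at these distances. Farther out, clustered regions had 0.0955 at 15 to 50 kb, again without the largest cluster, and 0.0778 at 50 to 200 kb. Between different sets of cultures the value under 2 kb was 0.102, beside 0.0741 in the other autosomal regions under 2000 bp. Where the gap between the regions was over 1000 bp, so that a fragment was less likely to touch both, r was 0.0764 over 1481 pairs. With a mean of at least 5 CPM in both regions it was 0.111 over 978 pairs, and 0.0738 in the other autosomal regions under 2000 bp. The part of shared fragments in the pairs under 2 kb was not tested.

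Within one genotype, the levels of neighbours also varied little together. The correlation across libraries, after taking out each genotype's mean, had a median of 0.0574 over the pairs outside the largest cluster and 0.0324 in the other autosomal regions under 2000 bp. In the largest cluster it was 0.617, and 99.6% of its pairs were positive. Cluster membership accounted for a small share of the total variation, with an intraclass correlation of the log2 fold change of 0.109 over 286 clusters without the largest, and 0.214 with it. That total includes the noise of single regions. Between cultures with codes starting with 3 and with 4, a region's r with itself was 0.303 outside the largest cluster. The median range of log2 fold changes within a cluster of 3 or more tested regions was 0.68.

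The largest cluster lay at chr9:2999931-3036753, spanned 36.8 kb and held the first 39 listed regions of chromosome 9. The next listed region began 222 kb farther on. The assembled sequence of mouse chromosomes starts beside the centromere, a part of the chromosome known for satellite repeats. Repeat content and the handling of reads with several matches were not analysed here. The 39 regions were narrow, from 155 to 855 bp with a median of 240 bp, and each had 11 to 30 neighbours. Their median spacing was 727 bp, and they covered 30.7% of the span. Mean levels ran from 1.83 to 30.7 CPM, and the median per kb, 19.1 CPM, was above that of the clustered regions elsewhere, 9.34 CPM.

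In KO, 38 of the 39 had a negative log2 fold change, with a median of -0.70. A single one was called, chr9:3018543-3018877, and 25 passed at an unadjusted p under 0.05, all lower. That region had WT levels of 12.01, 8.29, 3.66, 8.91 and 8.64 CPM and KO levels from 0.833 to 4.88 CPM with a median of 4.09 CPM. WT 4-2, at 3.66 CPM, lay inside the KO range. On the log2 scale KO minus WT was -1.45 (standard error 0.354, adjusted p 0.0358 by edgeR), lost without WT 3-4, 3-7 or 4-4, or KO 3-2, 3-5, 4-7 or 4-8 (adjusted p from 0.0528 to 0.137).

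Summed over the 39 regions, the level was 370, 395, 221, 296 and 339 CPM in WT 3-4, 3-7, 4-2, 4-3 and 4-4. In KO it was 259 CPM in 1-1, 249 in 2-3, 122 in 3-2, 241 in 3-3, 120 in 3-5, 229 in 4-7 and 239 in 4-8. The genotypes overlapped: only KO 3-2 and KO 3-5 were below the lowest WT culture. The means were 324 ± 68.2 CPM (SD, n = 5) and 209 ± 60.7 CPM (SD, n = 7), and the fitted difference was -0.63 on the log2 scale (standard error 0.237). The sum did not pass the test (p 0.0227, edgeR adjusted p 0.257), nor in any of 21 alternatives, with adjusted p from 0.105 to 0.415.

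The difference in this cluster was unequal between sets of cultures. In those whose code starts with 3 the median difference was -1.23 on the log2 scale, negative in 39 of 39 regions. In those whose code starts with 4 it was -0.31, negative in 32 of 39. Regions on unplaced contigs, listed under names ending in random, summed to 1208 to 1497 CPM in WT and 1031 to 1423 CPM in KO, with overlap. The lowest library there was KO 3-2. The part of either in the difference was not tested. The 1258 tested clustered regions outside this cluster had 10 calls (0.795%), a median log2 fold change of 0.02, and 12.6% at an unadjusted p under 0.05.

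**Figure D3:**
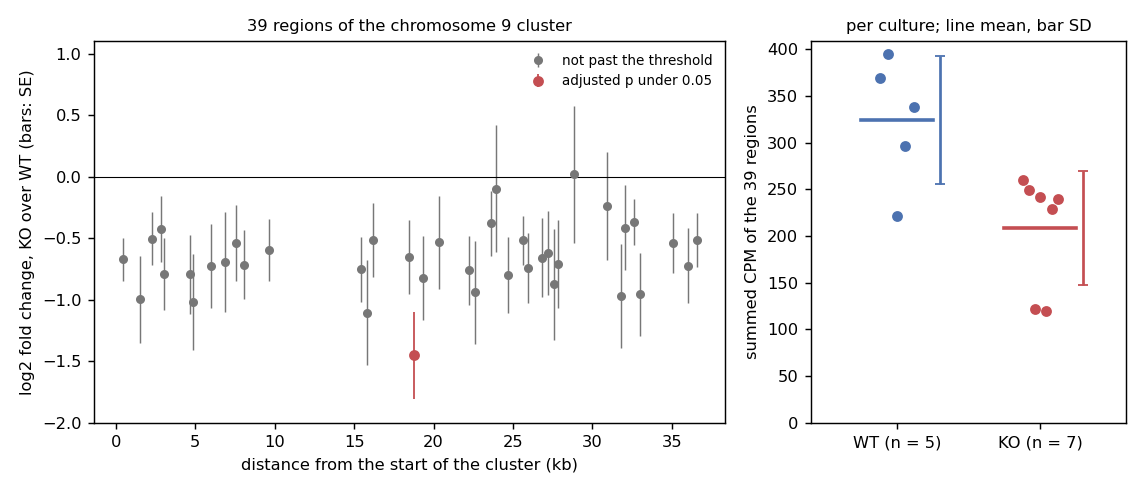
The cluster of 39 regions on chromosome 9. Left, log2 fold change (KO over WT) of each region with its standard error against position within the cluster (kb); 38 of 39 points lie below 0. Right, summed level (CPM) in each library, where KO 3-2 and KO 3-5 are the only libraries below the lowest WT culture.

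Counts were also summed over the clustered regions of each cluster and tested as one value. Of 474 tested clusters 5 changed (1.05%), 3 higher and 2 lower in KO, where 0.819% of all 72523 summed clusters and single regions were called (0.528% higher, 0.291% lower). At an unadjusted p under 0.05, 78 clusters passed (16.46%), 47 higher and 31 lower, beside 14.3% of all summed clusters and single regions. Of the 5, 2 clusters held 1 clustered region each (those on chromosomes 4 and 9 described above), so 3 sums joined several regions. The number of changed clusters was 0 without WT 4-2, WT 4-4 or KO 4-7. There 62 of 475, 66 of 476 and 65 of 474 tested clusters passed at an unadjusted p under 0.05. It was 1 without WT 3-4, WT 3-7 or KO 3-2, 2 without KO 3-3 or KO 4-8, 9 without WT 4-3 and 13 without KO 2-3. DESeq2 on all libraries called 11, and edgeR with the first code number as a block called 10. The share of all single regions called moved too. It was 0.810% as reported, 1.70% with DESeq2, 2.00% with the block, 1.91% without KO 2-3 and 0.128% without WT 4-4.

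In the cluster at chr10:39218081-39233196, the sum of 3 regions fell, though none of them was called alone. Their log2 fold changes were -0.50, -0.54 and -0.35. The sums in WT were 55.8, 57.6, 56.2, 49.2 and 49.7 CPM, and in KO they ran from 31.6 to 45.7 CPM with a median of 39.4 CPM. All 7 KO cultures were below the lowest WT culture. The log2 fold change of the sum was -0.47 (standard error 0.113, adjusted p 0.0294 by edgeR), with differences of -0.54 and -0.44 in the cultures whose codes start with 3 and 4. It was called in 15 of 21 alternatives, and not without WT 3-4, 3-7, 4-2 or 4-4, or KO 3-2 or 4-7 (adjusted p from 0.0559 to 0.089).

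In the cluster at chr10:80454499-80469567, which holds the called region on that chromosome, the 4 regions had log2 fold changes of 0.91, 0.33, 0.32 and 0.80. The sums in WT were 37.0, 36.0, 23.9, 20.1 and 26.8 CPM, and in KO they ran from 32.6 to 49.5 CPM with a median of 44.7 CPM. Of the 7 KO cultures 5 were above the highest WT culture. For the sum, KO minus WT was 0.57 on the log2 scale (standard error 0.137, adjusted p 0.0297 by edgeR). Within codes starting with 3 it was 0.23, and within codes starting with 4 it was 0.94. The call held in 15 of 21 alternatives, and not without WT 4-2, 4-3 or 4-4, or KO 3-2, 4-7 or 4-8 (adjusted p from 0.0557 to 0.118).

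In the cluster at chr18:77458397-77471474, all 5 regions had positive log2 fold changes, 0.75, 0.45, 0.83, 0.38 and 0.20, and none was called alone. The sums in WT were 30.0, 27.5, 32.0, 47.9 and 29.5 CPM, and in KO they ran from 39.7 to 58.0 CPM with a median of 49.2 CPM. WT 4-3, at 47.9 CPM, lay among the KO cultures, and the other 4 WT cultures lay below all of them. The sum rose by 0.52 on the log2 scale (standard error 0.127, adjusted p 0.0308 by edgeR). It was called in 14 of 21 alternatives, and not without WT 3-4, 3-7, 4-2 or 4-4, or KO 3-2, 3-3 or 4-7 (adjusted p from 0.0685 to 0.119).

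**Figure D4:**
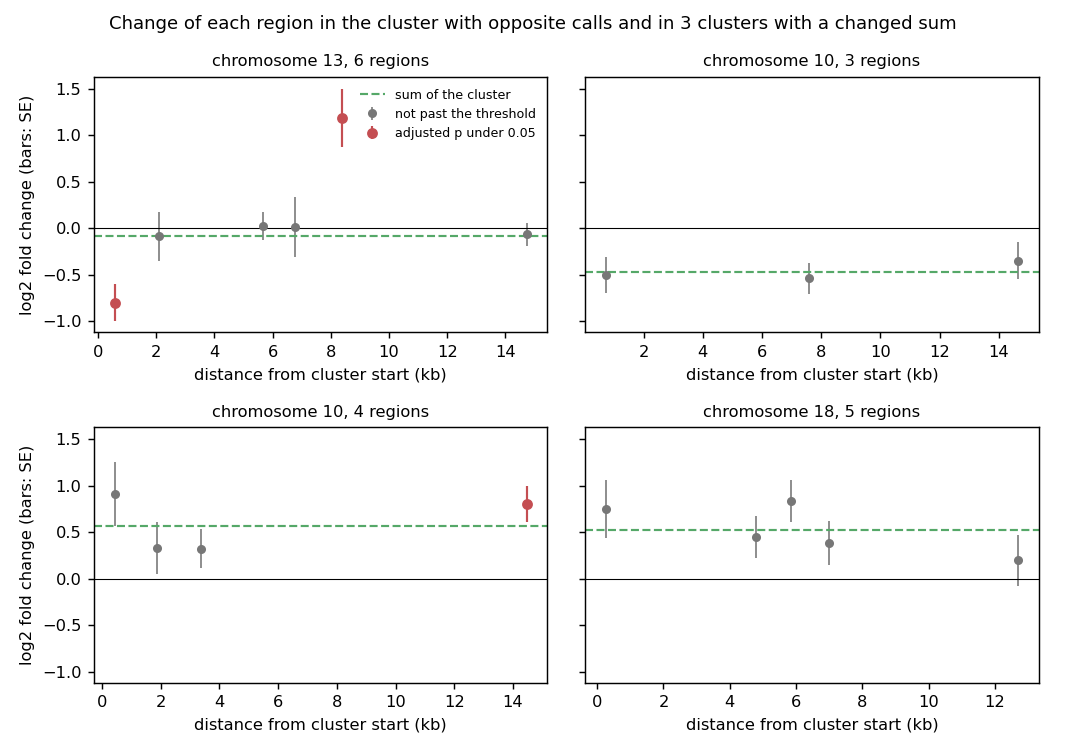
Log2 fold change (KO over WT) with its standard error of each region, against position within the cluster (kb), in the cluster of chromosome 13 with opposite calls and in the 3 clusters with a changed sum over several regions; red points passed the threshold alone, and the dashed line is the fold change of the sum. The 6 values of the first run from -0.80 to 1.19, while those of the other 3 clusters have one sign each.

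The next sums in each direction did not pass with all libraries, but some did under other settings. At chr5:137994159-138007077 the sum was 34.2 ± 1.95 CPM (SD, n = 5) in WT and 45.8 ± 5.73 CPM (SD, n = 7) in KO, with all 7 KO cultures above the highest WT culture, a log2 fold change of 0.43 and an edgeR adjusted p of 0.0588. It was called in 8 of 21 alternatives: DESeq2 (adjusted p 0.0167), total-count scaling (0.0383), trended scaling (0.0183), a 5 CPM minimum (0.0256), the first code number as a covariate (0.0348), and without KO 1-1 and KO 2-3 (0.0263), without KO 2-3 alone (0.0181) or without WT 4-3 (0.0439). Of its 6 tested regions 5 had positive values. The sum at chr14:122001838-122014464, around the called region there, had a log2 fold change of 0.46 (edgeR adjusted p 0.0909), and all 5 of its regions were positive. It was called in 6 alternatives, by DESeq2 (adjusted p 0.0459), with trended scaling (0.0495), with the 5 CPM minimum (0.0492), and without KO 1-1 and KO 2-3 (0.0402), KO 2-3 alone (0.0354) or WT 4-3 (0.0408). At chr5:143167552-143188722 it was 0.35 (edgeR adjusted p 0.101), with all 7 KO cultures above the highest WT culture, and it was called by DESeq2 (0.0352), with trended scaling (0.0239) and with the 5 CPM minimum (0.0365). The lower sums after the called one had values of -0.37 at chr11:87261406-87277089, -0.31 at chr5:111629535-111647846, -0.31 at chr13:84888748-84904152 and -0.41 at chr5:33068702-33090713, with edgeR adjusted p from 0.111 to 0.191. Of these 4, DESeq2 called the one at chr5:111629535-111647846 (adjusted p 0.0492), and no other setting called any.

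The sums of the other 3 clusters with 10 or more regions did not pass the test. The cluster at chr13:23608611-23668266 had 15 regions over 59.7 kb and summed to 283 ± 41.6 CPM (SD, n = 5) in WT and 274 ± 29.1 CPM (SD, n = 7) in KO. Its sum differed by -0.04 on the log2 scale (edgeR adjusted p 0.875). At chr13:23515182-23556516, 13 regions over 41.3 kb summed to 179 ± 14.1 CPM (SD, n = 5) and 160 ± 14.1 CPM (SD, n = 7), a log2 fold change of -0.15 (edgeR adjusted p 0.450). Of its 13 regions 6 were positive and 7 negative. At chr2:157303801-157363786, 9 of 11 tested regions were positive and the sum had a log2 fold change of 0.20 (edgeR adjusted p 0.327).

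Clusters whose regions all had one sign were 37 of the 195 with 3 or more tested regions, 19 positive and 18 negative. Of the 51 clusters with 6 or more tested regions, 6 had one sign throughout, 5 negative and 1 positive, and no sum among those 6 was called (edgeR adjusted p from 0.154 to 0.339). The positive one, at chr13:83792208-83807246, had 6 regions with a median log2 fold change of 0.32. The negative ones included chr13:84888748-84904152, with 7 regions and a median of -0.32, and chr5:33068702-33090713, with 7 regions and a median of -0.38. The last of these differed by -0.91 within codes starting with 3 and by -0.07 within codes starting with 4. No matching counts were made in other regions, so whether 37 of 195 and 6 of 51 are high or low was not tested.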

How the data were processed

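Per the deposited files, the authors' ATAC-seq values are whole-number read counts in 76570 regions, the same in all 12 libraries. Tools listed in the submitters' processing notes, without roles, are Bowtie2, MACS2, bedtools, Trim Galore, DESeq2 and kallisto 0.44.0, with builds mm10 and mm9. The sources used here do not give how regions were called, how duplicates and multiply matching reads were handled, or whether reads were shifted for Tn5. File starts were read as 0-based and are printed 1-based. RNA files were not used here.

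The main test was that of edgeR 4.0.16, run in R 4.3.3 (robust quasi-likelihood F-test, TMM scaling, filterByExpr by genotype, all regions, no covariate). P-values were adjusted by Benjamini-Hochberg over all tested regions, with a threshold of 0.05. SE is the log2 fold change over the root of F. CPM values are TMM-scaled, and log2 CPM used a prior count of 2. Summed clusters were fitted with all remaining regions kept single. Correlations used tested regions. The script was tested on simulated data. Alternatives were DESeq2 1.42.0, other scalings (limma 3.58.1 for the trended one), filters, covariates, windows, neighbour minimums and left-out libraries. Leaving out the largest cluster, and libraries in the comparison across codes, was chosen after seeing the data.

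The regions, tests and lists were chosen with earlier results of these data known. All called regions are named. Clusters named are the 5 with the smallest adjusted p of the sum per direction among those with 3 or more tested regions, and the 3 with the most regions; the cluster with opposite calls, the cluster on chromosome 2 and that at chr13:83792208-83807246 were chosen after their values were seen. No 2 libraries of a genotype were alike within sampling noise (chi-square per region 3.58 to 7.14 over 31 pairs).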

Additional observations from a re-analysis of the deposited data

Results flagged for a closer look

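Among 46 groups of libraries checked for a value far from the rest (each genotype at each named region and cluster), 3 were flagged, and chance flags about 1 in 20. At chr18:13083440-13084051, WT 3-7 had a log2 CPM of 4.06, and the nearest other WT culture had 3.12. In the summed cluster at chr18:77458397-77471474, WT 4-3 had a log2 CPM of 5.58, and the nearest other WT culture had 5.00. In the summed cluster at chr13:23608611-23668266, KO 2-3 had a log2 CPM of 8.39, and the nearest other KO culture had 8.13.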

How the results depend on the processing

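The number of called clustered regions, 11, became 21 with DESeq2, 22 with the first code number as a covariate, and 27 without KO 1-1 and KO 2-3. These were 1.62%, 1.70% and 2.09% of the clustered regions tested, beside 1.70%, 2.00% and 2.18% of all tested regions. It was 3 of 256 tested with a window of 10 kb and 33 of 3543 with 20 kb. With 4 or more neighbours it was 37 of 3945, with 6 or more 5 of 400, and at an adjusted p under 0.01 it was 1 of 1297. Leaving out 1 library gave 2 to 28. The 5 changed sums became 11 with DESeq2, 8 with trended scaling, 8 in regions averaging at least 5 CPM, 10 with the code covariate and 13 without KO 1-1 and KO 2-3. Of all single regions, 0.950% were called with trended scaling and 1.55% of those averaging at least 5 CPM, beside 0.810% as reported. The changed sums were 1 of 90 and 8 of 1105 tested clusters with windows of 10 and 20 kb. With 4 or more and 6 or more neighbours they were 10 of 1388 and 2 of 128. In edgeR at an adjusted p under 0.01 they were 0 of 474, where 78 passed at an unadjusted p under 0.05. Leaving out 1 library gave 0 to 13. The correlation of neighbours, 0.454, was 0.318 in regions averaging at least 5 CPM, 0.284 with a window of 20 kb, 0.256 with 4 or more neighbours, 0.554 with a window of 10 kb, 0.581 with 6 or more neighbours and 0.109 without the largest cluster, and 0.383 to 0.490 without 1 library. The same-sign share, 63.2%, was 57.5% in those averaging at least 5 CPM, 79.3% and 57.3% with windows of 10 and 20 kb, 56.4% and 73.3% with 4 or more and 6 or more neighbours, 55.1% without the largest cluster, and 61.3 to 64.2% without 1 library. The correlation across codes, 0.252, was 0.0470 without the largest cluster and 0.159 to 0.301 without 1 library. Without the largest cluster, the correlation was 0.0929 to 0.128 and the same-sign share 53.5 to 56.0% over the scalings, filters, covariates and left-out libraries. For the 11 called regions, 166 of 229 values under alternatives kept the call and 63 lost it, 60 of them by leaving out 1 library, and none changed sign. The causes of these changes were not tested. No paired analysis was possible because no full code occurs in both genotypes, so single cultures cannot be matched. A comparison blocked by the first code number, the covariate fit above, was possible and gave the 22 regions and 10 sums. At these depths, regions of a few CPM carry large standard errors, so smaller changes in them may go uncalled.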
